A study of Homo sapiens with 6 samples.

Results

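Small nucleolar RNA host genes were described in T24 cells, a human bladder cancer cell line of high grade, after knockdown of RBM3. The genes were chosen by name: the symbol begins with SNHG followed by a number, or is GAS5, ZFAS1, EPB41L4A-AS1 or TAF1D, and the gene has at least 10 counts summed over the 6 libraries. Of 32 annotated symbols that match, 31 have an entry among the 63677 identifiers counted, and 28 reached the minimum. SNHG3 and SNHG20 are listed at 0 in all 6 libraries and SNHG27 holds 4 counts, so these 3 were left out. Whether reads of SNHG3 and SNHG20 were assigned to other identifiers was not tested, so their 0 does not show that the genes are silent. Of the 28 genes, 27 are annotated as long non-coding RNAs and 1, TAF1D, as protein-coding. SNHG21, with 71 counts in all, had too few counts for the test, which left 27 of 15099 genes tested.

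The 3 control libraries came from T24 cells transfected with a non-targeting siRNA, and the 3 siRBM3 libraries from T24 cells that received a mixture of anti-RBM3 siRNAs. Both groups were treated alike otherwise, with siRNA at 25 nM in medium without serum for 4.5 h and recovery overnight in full medium. RNA was sequenced from polyA-selected, stranded libraries. Nothing states that the replicates were separate cultures, so p-values measure only the spread between these samples, which may be technical. The comparison asks how the transcriptome of T24 cells differs when RBM3, an RNA-binding protein induced by mild cold, is depleted.

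A small nucleolar RNA (snoRNA) host gene carries snoRNAs in its introns. For SNHG10, SNHG21, SNHG22 and SNHG28 the annotation used lists no SNORA or SNORD gene inside. In SNHG28 it lists a snoRNA gene without such a name, LOC124900450. Only genes typed as snoRNA were looked for, so whether these genes carry guide RNAs of other types was not tested. After splicing, the introns are trimmed to the snoRNAs, which guide modification of ribosomal RNA: box C/D snoRNAs direct methylation of the ribose and box H/ACA snoRNAs direct conversion of uridine to pseudouridine. The spliced exons of many host genes encode no conserved protein, are translated from short reading frames and are degraded by nonsense-mediated decay (NMD), so the level of the spliced RNA depends on translation as well as on transcription. Several host genes begin with a 5′ terminal oligopyrimidine tract (TOP), a C followed by a run of C and T, which they share with the genes for ribosomal proteins and through which translation follows growth signals.

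The libraries held between 23603992 and 45098612 counts, of which the host genes took between 0.135% (control replicate 1) and 0.237% (control replicate 3). RBM3 itself lay between 225 and 368 CPM (each gene's counts set against the library total, with TMM scaling) in control and between 54.1 and 90.1 in siRBM3 libraries, a log2 fold change of -2.14 with an FDR of 0.082 (edgeR quasi-likelihood test, Benjamini-Hochberg). The mitochondrial share of counts was 1.63%, 2.86% and 2.10% in control replicates 1, 3 and 5, and 9.40%, 4.15% and 2.32% in siRBM3 replicates 3, 4 and 5. Keratin genes of epithelium were high (KRT7 2354 to 3240 CPM), GATA3 lay between 9.31 and 14.3 CPM, and of the uroplakins, markers of differentiated urothelium, UPK2 lay between 1.13 and 1.86 CPM while UPK1B and UPK3A did not exceed 0.276 CPM. The summed level of the 8 epithelial and urothelial markers was 5072 to 5875 CPM in control and 4215 to 4315 CPM in siRBM3 libraries, without overlap, and its part in the host gene values was not tested. The summed level of 7 markers of other cell types was 8.31 to 9.68 CPM in control and 9.11 to 10.4 CPM in siRBM3 libraries, most of it COL1A1, while CD3E, DCN and DES were at or near 0. All libraries come from the T24 line, and bulk RNA cannot tell whether a difference lies in all cells or in some.

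The first 30 bases of the most-shared annotated transcript start are shown for host genes on which the results below turn, because the start is where a TOP tract would lie. Sequences were read 5′ to 3′ on the transcript strand from GENCODE transcripts on GRCh37, all windows lie in the first exon, and capitals mark a C followed by at least 4 bases that are each C or T.
GAS5: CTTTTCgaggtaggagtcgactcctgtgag, chr1:173837098-173837127, minus strand
ZFAS1: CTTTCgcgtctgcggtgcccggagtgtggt, chr20:47895179-47895208, plus strand
SNHG29: CTTTTCattcccgttgttatggaggtaggc, chr17:16342351-16342380, plus strand
TAF1D: CCTTTTCTTCCgcacggttggaggaggtcg, chr11:93474632-93474661, minus strand
SNHG8: CTTTCacattcgggaagcgtcgggattagg, chr4:119199913-119199942, plus strand
EPB41L4A-AS1: CCTTTCTTCCTTTTggtgcgagcttgctgt, chr5:111496561-111496590, plus strand
SNHG12: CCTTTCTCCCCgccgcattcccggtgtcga, chr1:28908356-28908385, minus strand
SNHG5: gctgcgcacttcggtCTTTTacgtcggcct, chr6:86388437-86388466, minus strand
SNHG16: gttCTTTTCgaggtcggccgcgtggctgga, chr17:74553848-74553877, plus strand
SNHG1: ctcatttttctactgctcgtggtaagtggc, chr11:62623328-62623357, minus strand
SNHG15: ggcgcagcgcgcggcgtcagtcttggctgg, chr7:45026238-45026267, minus strand
SNHG31: tgagcgcagtcgcgaggctgtagttggcag, chr2:215674905-215674934, plus strand
The run began at the first base in 9 of 27 tested host genes (33.3%): the first 7 shown, SNHG6 and SNHG26. The same was found for 50 of 77 tested ribosomal protein genes (64.9%) and 540 of 14747 tested genes with an annotated transcript (3.66%). Anywhere in the first 30 bases the run was present in 16 host genes (59.3%), 63 ribosomal protein genes (81.8%) and 4850 of all (32.9%). In SNHG16 the run began 4 bases in and in SNHG5 16 bases in, whereas SNHG1, SNHG15 and SNHG31 held none in this window. The most-shared start can belong to a minority of the annotated transcripts: 2 of 22 in TAF1D and 4 of 19 in SNHG12, but 50 of 91 in GAS5. A match describes letters at an annotated start and was not tested as a functional tract.

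Most host genes were somewhat lower in siRBM3 than in control libraries, and none passed the thresholds for a call. The lowest were SNHG31, SNHG12, SNHG15, SNHG9, SNHG25 and SNHG17, whose log2 fold changes ran from -0.96 to -0.49. GAS5, ZFAS1, SNHG29 and SNHG5, which are among the most abundant, had fold changes close to 0 with wide errors. Of the 27 tested genes 20 were lower at any p (74.1%, against a background of 51.5% of all tested genes) and 7 were higher. The median log2 fold change was -0.13, against -0.01 over all tested genes.

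With edgeR's quasi-likelihood test and Benjamini-Hochberg adjustment over all tested genes, 0 host genes reached the threshold for a call (1.5-fold with an FDR below 0.01), as was true of 0% of all tested genes, and the smallest FDR was 0.184 (SNHG12). DESeq2 also called 0 of 26 host genes with an adjusted p, where the background was 1.22% of genes, and its smallest adjusted p was 0.0197 (SNHG12). At an unadjusted p under 0.05, edgeR put 6 host genes lower (22.2%, background 6.58%) and 0 higher (background 6.56%), while DESeq2 put 5 lower (background 3.48%) and 0 higher (background 3.24%). These DESeq2 backgrounds are over 30089 genes, without the filter on low counts that left 15099 for edgeR. They are therefore not a like measure for host genes that passed that filter. The 6 became 3 when control replicate 3 (background 5.27%), siRBM3 replicate 4 (4.58%) or siRBM3 replicate 5 (5%) was left out, and 2 without control replicate 5 (4.51%). They became 7 without control replicate 1 (background 8.64%) or siRBM3 replicate 3 (5.35%). The median became -0.27 without control replicate 1 and -0.26 without siRBM3 replicate 3.

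**Figure D1:**
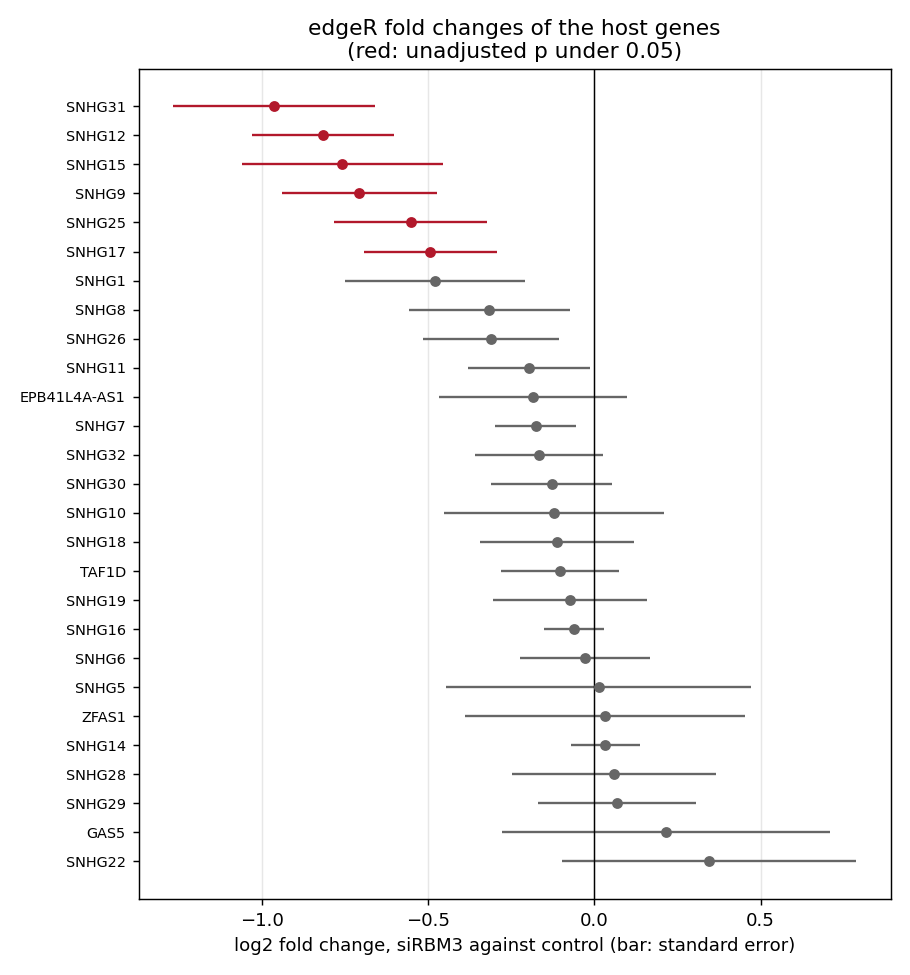
Log2 fold change of siRBM3 against control (x axis) for each of the 27 tested host genes (y axis), fitted with edgeR on 3 libraries per group; bars are standard errors and red marks an unadjusted p under 0.05. The 6 red genes all lie left of 0, from -0.96 to -0.49, and the bars of GAS5, SNHG5 and ZFAS1 reach well past 0 on both sides.

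SNHG12, which carries 3 box H/ACA snoRNAs and SNORD99, had the smallest p of the group. In control replicates 1, 3 and 5 it stood at 11.6, 19.5 and 16.8 CPM, while siRBM3 replicates 3, 4 and 5 gave 10.7, 8.18 and 8.23 CPM, and libraries are given in this order throughout. No siRBM3 library reached the level of a control, although the highest siRBM3 library came close to the lowest control. The difference was -0.82 on the log2 scale (SE 0.21), a level lower by 43.2%, with an unadjusted p of 0.00477 in edgeR's quasi-likelihood test and a Benjamini-Hochberg FDR of 0.184. FDR values of single genes below come from the same fit. An exact two-sided permutation test on the libraries gave p = 0.1, the smallest that 3 against 3 allows. The unadjusted p stayed below 0.05 in all 6 fits that left out 1 library, with log2 fold changes at or below -0.65.

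SNHG31, which holds SNORA70I, was far less abundant. The controls gave 1.65, 1.57 and 1.96 CPM, and the siRBM3 libraries gave 1.19, 0.790 and 0.605 CPM. The groups did not overlap, and the log2 fold change of -0.96 (SE 0.30) was the lowest among the host genes. Over the 6 libraries it rests on 225 counts in all, the FDR was 0.248 in edgeR, and the unadjusted p remained below 0.05 whichever library was left out.

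SNHG9, host of SNORA78, stood at 2.65, 3.18 and 4.10 CPM in control and at 2.22, 1.94 and 1.90 CPM in siRBM3 libraries. All siRBM3 libraries were again below all controls. The log2 fold change was -0.71 (SE 0.23, FDR 0.263 in edgeR), and the unadjusted p rose above 0.05 only when control replicate 5 was left out. SNHG25, the host of SNORD104, showed a narrower spread, with 2.14, 1.91 and 2.00 CPM in control and 1.61, 1.19 and 1.29 CPM in siRBM3 libraries. Its groups were separate too, at a log2 fold change of -0.55 (SE 0.23, FDR 0.357 in edgeR), yet the unadjusted p stayed below 0.05 in 1 of the 6 fits without a library.

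SNHG15 and SNHG17 were more abundant and their groups overlapped. SNHG15, host of SNORA9, was at 13.0, 32.9 and 23.6 CPM in control and at 15.9, 12.6 and 12.4 CPM in siRBM3 libraries. Control replicate 1 was as low as the siRBM3 libraries, while the other two controls were well above them. The log2 fold change was -0.76 (SE 0.30, FDR 0.342 in edgeR), and the unadjusted p stayed below 0.05 only without control replicate 1 or siRBM3 replicate 3. SNHG17 carries 4 members of the SNORA71 family and gave 27.8, 47.9 and 36.8 CPM in control against 29.4, 22.8 and 27.6 CPM in siRBM3 libraries. Here too control replicate 1 lay within the siRBM3 range, and the log2 fold change of -0.49 (SE 0.20, FDR 0.347 in edgeR) kept an unadjusted p below 0.05 in the same 2 of 6 fits.

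In all, 5 host genes had every siRBM3 library below every control (SNHG12, SNHG31, SNHG9, SNHG25 and SNHG26), which is 18.5% against 9.93% of all tested genes, and 0 had every siRBM3 library above (background 9.98%). SNHG26, host of SNORD93, was at 3.27, 3.25 and 2.75 CPM in control and 2.66, 2.13 and 2.66 CPM in siRBM3 libraries. Its groups were apart by a small margin and its log2 fold change of -0.31 had an FDR of 0.562 in edgeR. For the 6 genes with p under 0.05, at most 3.38% of the exon length overlaps exons of another gene.

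**Figure D2:**
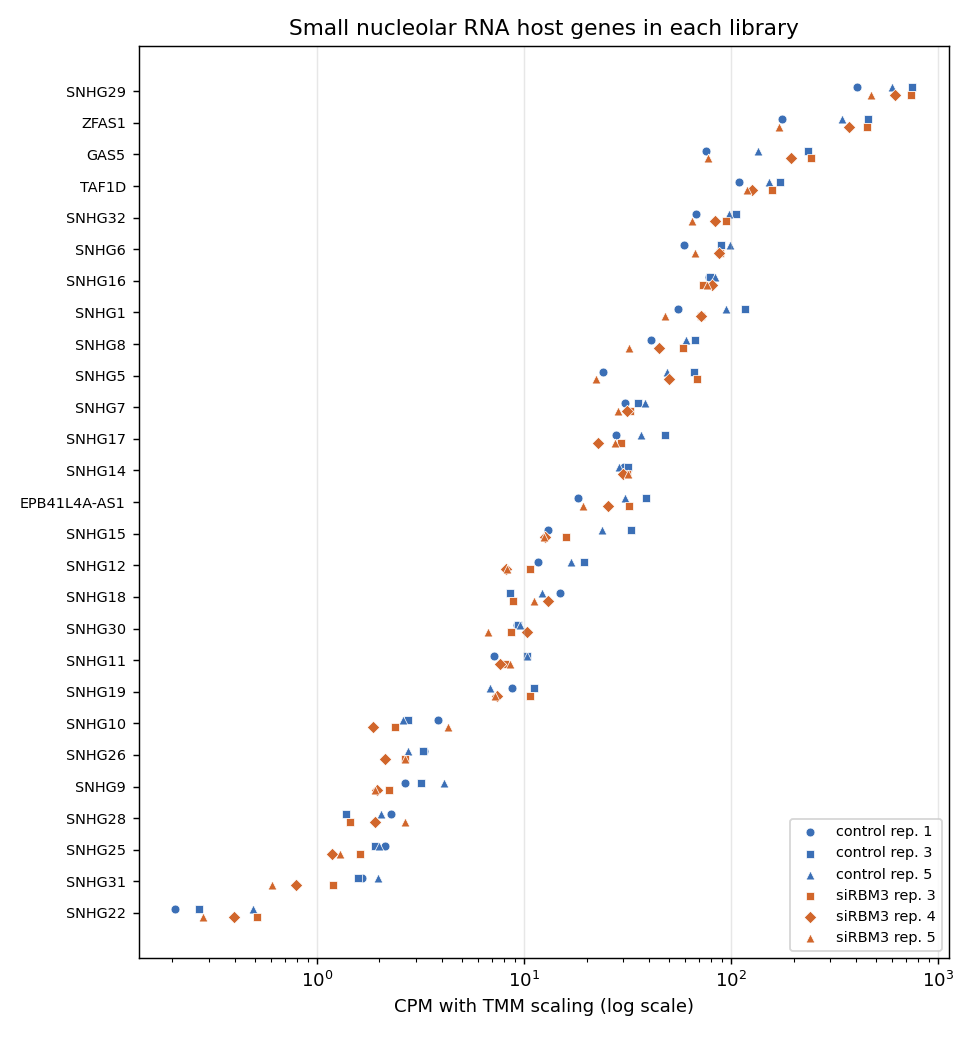
Level of the 27 tested host genes in each library, as CPM with TMM scaling on a log axis (x) and genes ordered by mean CPM (y); blue points are the 3 control and orange points the 3 siRBM3 libraries, with symbols for the replicate number. SNHG12, SNHG9, SNHG25 and SNHG31 show orange points left of all blue ones, whereas in GAS5, ZFAS1 and SNHG5 control replicate 1 and siRBM3 replicate 5 sit together at the low end.

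The box C/D hosts GAS5, ZFAS1 and SNHG5 differed more among replicates than between groups. GAS5, named for its accumulation in growth-arrested cells and the carrier of 10 box C/D snoRNAs, was at 75.2, 234 and 134 CPM in control and at 242, 195 and 77.3 CPM in siRBM3 libraries. The lowest control and the lowest siRBM3 library were nearly equal, as were the highest of each. Its log2 fold change was 0.22 (SE 0.49, FDR 0.887 in edgeR). Leaving out control replicate 1 made it -0.11, and leaving out siRBM3 replicate 3 made it -0.12. It was 0.71 without control replicate 3, 0.56 without siRBM3 replicate 5, 0.15 without control replicate 5 and 0.11 without siRBM3 replicate 4.

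ZFAS1, transcribed antisense to the start of ZNFX1 and holding 3 snoRNAs of the SNORD12 family, gave 176, 457 and 341 CPM in control and 453, 371 and 170.3 CPM in siRBM3 libraries. The groups covered the same range. The log2 fold change was 0.03 (SE 0.42, FDR 0.982 in edgeR), and it was -0.27 without control replicate 1, -0.26 without siRBM3 replicate 3 and -0.06 without siRBM3 replicate 4, but 0.36 without control replicate 3 and 0.34 without siRBM3 replicate 5. SNHG5, with SNORD50A and SNORD50B, repeated the order at 24.1, 66.3 and 48.8 CPM in control and 68.1, 49.8 and 22.2 CPM in siRBM3 libraries. Again control replicate 1 and siRBM3 replicate 5 were at the bottom, and the log2 fold change was 0.01 (SE 0.46, FDR 0.994 in edgeR). Without control replicate 1 it was -0.30, without siRBM3 replicate 3 it was -0.37, and without siRBM3 replicate 4 it was -0.03. It was 0.36 without control replicate 3 and 0.35 without siRBM3 replicate 5.

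SNHG29, host of SNORD49A, SNORD49B and SNORD65, was the most abundant, with 406, 749.6 and 594 CPM in control and 741, 619.9 and 472 CPM in siRBM3 libraries. The same 2 libraries were lowest, with a smaller distance to the rest. Its log2 fold change was 0.07 (SE 0.24, FDR 0.931 in edgeR), which became -0.14 without control replicate 1 and -0.10 once siRBM3 replicate 3 was left out. Without control replicate 3 it was 0.29, and without siRBM3 replicate 5 it was 0.22. Per kilobase of the canonical transcript SNHG29 also had the highest mean level, 1348 CPM per kb, ahead of GAS5 at 208, SNHG16 at 158 and TAF1D at 85.3 CPM per kb, down to 0.222 CPM per kb for SNHG22. That order depends on which transcript is taken as canonical, since it has 443 bases in SNHG29 and 4526 in ZFAS1.

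SNHG1, host of 8 box C/D snoRNAs and a classical target of NMD, was at 55.5, 116 and 94.8 CPM in control and at 71.5, 71.2 and 48.0 CPM in siRBM3 libraries. Control replicates 3 and 5 were above every siRBM3 library and control replicate 1 was not. The log2 fold change was -0.48 (SE 0.27, FDR 0.502 in edgeR), between -0.73 and -0.24 when single libraries were left out. The unadjusted p was below 0.05 in 1 of those 6 fits.

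SNHG8, host of SNORA24, had a similar arrangement at 41.1, 67.1 and 60.2 CPM in control and 58.2, 44.6 and 32.2 CPM in siRBM3 libraries. Its log2 fold change was -0.32 (SE 0.24, FDR 0.630 in edgeR). SNHG32, with SNORD48 and SNORD52, was at 67.8, 106 and 98.0 CPM in control and 93.9, 83.2 and 64.6 CPM in siRBM3 libraries, and its groups overlapped across most of their range. The log2 fold change of SNHG32 was -0.17 (SE 0.19).

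SNHG6, host of SNORD87, gave 59.2, 88.9 and 98.4 CPM in control and 87.8, 87.3 and 66.5 CPM in siRBM3 libraries, with a log2 fold change of -0.03 (SE 0.20). TAF1D encodes a subunit of the selectivity factor of RNA polymerase I, and its span holds 6 box H/ACA and 2 box C/D snoRNAs. TAF1D was at 109, 171 and 152 CPM in control and 158, 126 and 119 CPM in siRBM3 libraries. The groups of both genes overlapped, and the log2 fold change of TAF1D was -0.10 (SE 0.18). Leaving out control replicate 3 put both just above 0.

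SNHG16 stood apart from these by its steadiness. This host of SNORD1A, SNORD1B and SNORD1C was at 78.3, 78.6 and 83.5 CPM in control and at 73.1, 80.9 and 76.4 CPM in siRBM3 libraries. All 6 libraries lay close together, and the log2 fold change was -0.06 (SE 0.09, FDR 0.822 in edgeR).

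The shared order of libraries was looked at after these values were seen, and it concerns replicates rather than the groups. Control replicate 1 and siRBM3 replicate 5 were the 2 lowest of 6 libraries in 11 of 27 host genes (40.7%, background 11.3%): GAS5, ZFAS1, SNHG5, SNHG29, SNHG1, SNHG8, SNHG32, SNHG6, TAF1D, SNHG7 and EPB41L4A-AS1. They were also the 2 lowest in 58 of 77 tested ribosomal protein genes (75.3%). The median deviation of the ribosomal protein genes from the mean of the 6 libraries was -0.16 in control replicate 1 and -0.30 in siRBM3 replicate 5 on the log2 scale, and between 0.04 and 0.17 in the other four. GAS5 deviated by -0.93 and -0.89 in those 2 libraries, SNHG5 by -0.82 and -0.94 and ZFAS1 by -0.79 and -0.83.

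The spread within groups was wide for these genes. The within-group SD of log2(CPM + 0.5) was larger in GAS5 than in 99.6% of all tested genes, in SNHG5 than in 99.4%, in ZFAS1 than in 99.2% and in SNHG29 than in 89.8%. Its median was 0.309 over the host genes, 0.213 over the ribosomal protein genes and 0.189 over all tested genes. Of the 9 host genes whose most-shared annotated start begins with a C and a pyrimidine run, 7 had control replicate 1 and siRBM3 replicate 5 as the 2 lowest libraries. The same held for 4 of the other 18. Every host gene with that order had a mean of at least 27.3 CPM. SNHG12 (12.5 CPM) and SNHG26 (2.79 CPM), whose most-shared start begins with the run, lacked the order, as did SNHG16 (78.5), SNHG17 (32.1) and SNHG14 (30.7 CPM). The 2 libraries were picked from these same values, and a link of the order to the start, apart from the level, was not tested. In turn, 1 of those 9 (SNHG12) and 5 of the 18 had an unadjusted edgeR p under 0.05. Control replicate 1 also had the lowest mitochondrial share of the controls and siRBM3 replicate 5 the lowest of the siRBM3 libraries, and the part of that share in the result was not tested.

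**Figure D3:**
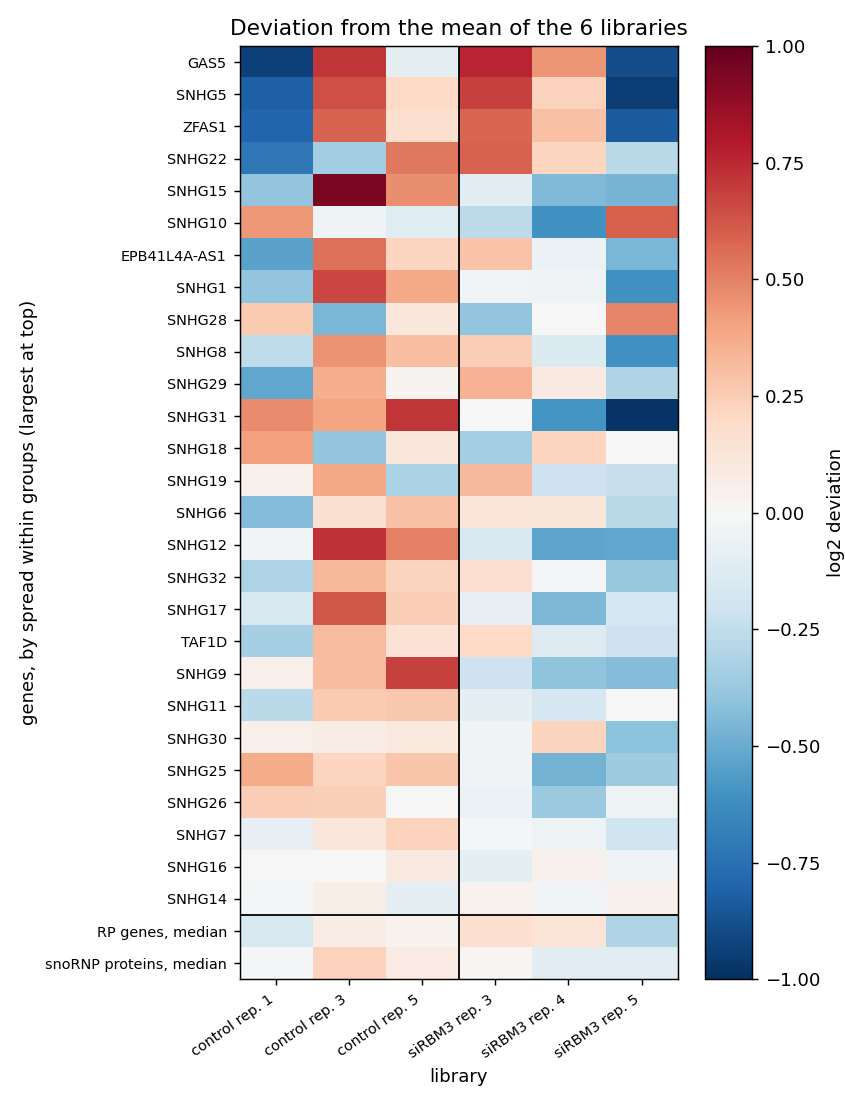
Log2 deviation of each host gene in each library (columns) from its mean over the 6 libraries, on log2 CPM, with genes (lines) ordered by their spread within groups. Below the line are the medians of the ribosomal protein (RP) genes and of the snoRNP proteins, on log2(CPM + 0.5). Blue is lower and red higher. GAS5, SNHG5 and ZFAS1 are blue in control replicate 1 and siRBM3 replicate 5, while SNHG12, SNHG9, SNHG25 and SNHG31 are blue toward the siRBM3 side, and SNHG14 and SNHG16 are nearly white.

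Among the remaining host genes no p was under 0.05. EPB41L4A-AS1, host of SNORA13, was at 18.2 to 38.6 CPM in control and 19.2 to 32.1 CPM in siRBM3 libraries, with a log2 fold change of -0.19 (SE 0.28). SNHG7, with a pair of box H/ACA snoRNAs, was at 30.8 to 38.1 and 28.4 to 32.3 CPM, with a log2 fold change of -0.18 (SE 0.12). SNHG14, the long imprinted host of the SNORD115 and SNORD116 clusters that runs antisense to UBE3A, stayed between 28.6 and 31.9 CPM in all 6 libraries. Its log2 fold change was 0.03 (SE 0.10), or -0.01 without control replicate 5.

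The log2 fold changes of the others were -0.20 in SNHG11, -0.13 in SNHG30, -0.12 in SNHG10, -0.11 in SNHG18 and -0.07 in SNHG19. Higher in siRBM3, none with p under 0.05, were SNHG28 at 0.06 and SNHG22 at 0.35, the latter on 64 counts in all. SNHG21, which was not tested, lay between 0.119 and 0.896 CPM. Leaving out single libraries moved SNHG10 between -0.53 and 0.10, SNHG18 between -0.30 and 0.09, SNHG19 between -0.29 and 0.12 and SNHG28 between -0.20 and 0.26, and the direction of these 4 genes turned with the libraries used.

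Exons of some host genes overlap other genes. The share of exon length that overlaps a gene on either strand was 58.9% in SNHG6, 54.3% in EPB41L4A-AS1, 38.6% in ZFAS1 and 37.6% in SNHG8, of which 3.10% in EPB41L4A-AS1 and 2.14% in ZFAS1 also overlap a gene on the same strand. No source used here gives the strand setting of the counting, so reads from such opposite pairs cannot be told apart. In SNHG28 (90.8%), SNHG32 (29.1%), SNHG19 (13.5%) and SNHG5 (13.2%) the whole overlap is shared with a gene on the same strand, where strand would not separate the reads, and the values of these genes are uncertain for that reason. ZNFX1, the partner of ZFAS1, had a log2 fold change of -0.32, and EPB41L4A, the partner of EPB41L4A-AS1, one of 0.34. SNHG1, SNHG9, SNHG15, SNHG25 and SNHG31 had no overlap at all.

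The snoRNAs themselves had almost no counts in these polyA libraries. Of 788 identifiers for SNORA and SNORD genes, 16 held any count, and of the 102 that lie inside the host genes in GENCODE 0 did. The snoRNAs named above for each host gene come from RefSeq, so some of them may not be among the 102. They were matched by position inside the span of the gene, and their strand and place in an intron were not checked. The values above are those of the host RNAs, and the level of the snoRNAs was not measured.

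The related lists give the setting of the host genes. Their counts are read against all 15099 tested genes. Of these, 51.5% were lower at any p, and 6.58% were lower and 6.56% higher at an unadjusted edgeR p under 0.05. For fits without 1 library no background was computed for higher genes. Of 18 snoRNP proteins, which bind, assemble or chaperone snoRNAs, 17 were tested and 15 were lower at any p (median -0.18). Lower with an unadjusted edgeR p under 0.05 were 4: RPAP3 (-0.29), an assembly cofactor, SNU13 (-0.30) of the box C/D core, NHP2 (-0.22) of the box H/ACA core and NOLC1 (-0.34), a chaperone. ZNHIT6, a box C/D assembly factor, was higher at 0.66. Of the remaining core proteins FBL was at -0.18, NOP56 at -0.26, NOP58 at -0.25, DKC1 at -0.35, NOP10 at -0.12 and GAR1 at -0.07, none with p under 0.05. The 4 became 0 without control replicate 3 or siRBM3 replicate 4, 1 without control replicate 5 or siRBM3 replicate 5, 5 without siRBM3 replicate 3 and 6 without control replicate 1.

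Of 21 NMD factors 18 were tested, with a median of -0.10. SMG5 (-0.38), which helps to remove phosphate from UPF1, and EIF4A3 (-0.23), a core protein of the exon junction complex, were lower at p under 0.05 in edgeR, and 0 were higher. Without control replicate 1 the lower count was 4, it was 1 without control replicate 3, control replicate 5, siRBM3 replicate 3 or siRBM3 replicate 5, and the median was -0.03 without control replicate 3. All 8 protein-coding transcripts taken as sensitive to NMD were lower at any p (median -0.29, or -0.44 without control replicate 1), 3 of them at p under 0.05 in edgeR: GADD45A (-0.68), UPP1 (-0.84) and DDIT3 (-0.44). GADD45A and DDIT3 are stress-response genes and UPP1 encodes a uridine phosphorylase.

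Of 77 tested ribosomal protein genes, 0 were higher and 2 lower at p under 0.05 in edgeR, RPS26 (-0.40) and RPL39L (-0.48), with a median of 0.05. Without siRBM3 replicate 5, 16 were higher (background not computed), 0 were lower (background 5%) and the median was 0.16. Without control replicate 3 0 were lower, and without control replicate 5 1 was. The median was -0.01 without control replicate 1, -0.03 without siRBM3 replicate 3 and 0.00 (0.00254) without siRBM3 replicate 4. Among 17 tested genes of RNA decay and translation control, EIF4EBP2 (0.66), a repressor of cap-dependent translation, and DCP2 (0.51), the decapping enzyme, were higher at p under 0.05 and TIAL1 (-0.26), a stress granule protein that binds TOP transcripts, was lower. The median was 0.06. The lower count was 2 without control replicate 1. It was 0 without control replicate 3, control replicate 5, siRBM3 replicate 4 or siRBM3 replicate 5. The higher count was 3 without control replicate 3 (background not computed).

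Protein-coding genes that carry snoRNAs had no common direction. Of 181 tested, 11 were higher and 10 lower at p under 0.05 in edgeR, with a median of 0.02. The 4 with the smallest p among the higher were CYRIB (0.74), STAG2 (0.54), AMMECR1 (0.52) and MIB1 (0.36), and among the lower SNRPB (-0.39), NOL11 (-0.53), PSMB5 (-0.35) and TBRG4 (-0.37). The higher count was 19 without control replicate 3, 18 without siRBM3 replicate 5 and 9 without control replicate 1 (background not computed). Without control replicate 1 the lower count was 15 (background 8.64%). In none of these lists, as among the host genes, did edgeR call a gene, and the smallest FDR over the lists was 0.0822 (EIF4EBP2).

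**Figure D4:**
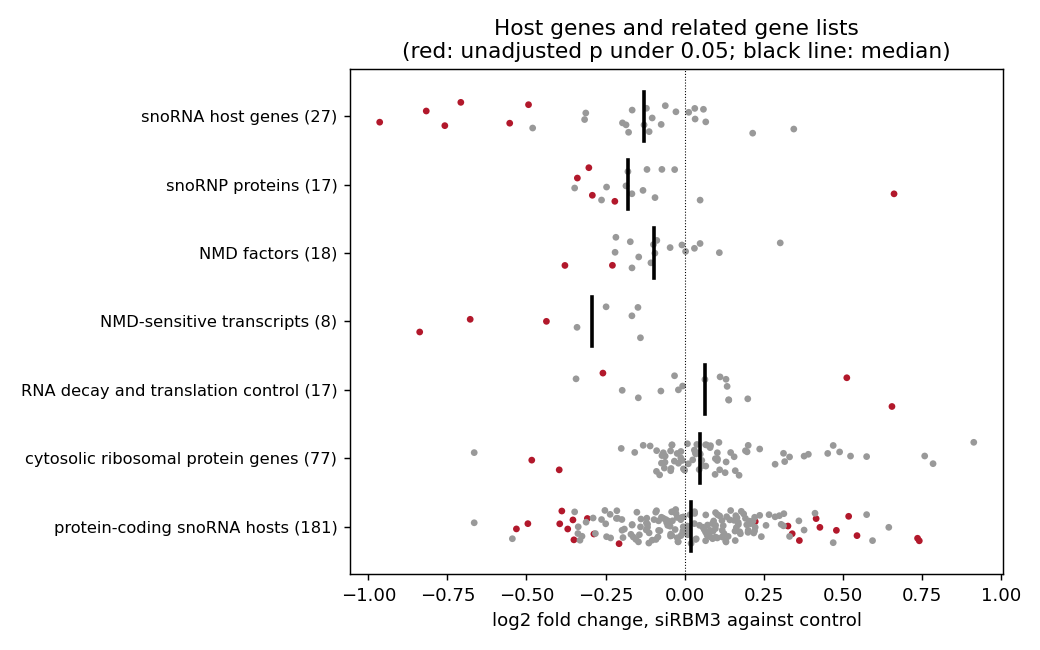
Log2 fold change of siRBM3 against control (x axis) for each tested gene of the host gene group and of the 6 related lists (y axis, number tested in brackets); points are genes, red marks an unadjusted edgeR p under 0.05 and black lines are medians. The medians of the host genes (-0.13), the snoRNP proteins (-0.18) and the NMD-sensitive transcripts (-0.29) lie left of 0, and those of the ribosomal protein genes (0.05) and protein-coding hosts (0.02) just right of it.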

How the data were processed

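Per the labels and the study's methods, reads were trimmed and then aligned to hg19/GRCh37 by STAR 2.5.2a, with duplicate marking by Picard and gene counting by featureCounts. The deposited table holds raw whole-number counts per Ensembl gene. Its annotation version, strand option and treatment of duplicates were not stated. Symbols, transcripts and positions came from GENCODE on GRCh37 (55665 identifiers matched), and names of nested snoRNAs from RefSeq on GRCh38.

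Groups came from the sample labels. Genes passing filterByExpr (count 10, total 15) were scaled by TMM and tested with edgeR 4.0.16 (quasi-likelihood, older form, robust, group as the single factor) in R 4.3.3, adjusting by Benjamini-Hochberg over 15099 genes. A call needed a 1.5-fold change and an FDR below 0.01, the thresholds of the study, which used DESeq2. DESeq2 1.42.0, limma-voom (limma 3.58.1), other scalings and filters, a replicate block and fits without 1 library were alternatives. The edgeR fit was also run on simulated counts, drawn independently for each gene and library. They held no order of libraries shared by genes, so that run does not show how the test behaves with such an order. Python 3.11.15 made the summaries. Replicates differed beyond sampling noise (chi-square per degree of freedom at least 27.7).

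The members and lists were chosen with earlier results of these data known. Given by library are the genes with an unadjusted p under 0.05 and the 10 with the highest mean CPM. From each list the genes with p under 0.05 are named, at most 4 in each direction, with the core snoRNP proteins. SNHG26 and the order of libraries were added after the values were seen.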

Additional observations from a re-analysis of the deposited data

How the results depend on the processing

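Other scaling factors (RLE or library size only), a stricter filter, the newer form of the edgeR test, DESeq2 and limma-voom left the number of host genes called at 0. So did looser FDR thresholds (0.05 and 0.1 at any fold) in the main edgeR fit. These looser thresholds were not applied to DESeq2, where SNHG12 had an adjusted p of 0.0197 and a log2 fold change of -0.82. Without a filter on low counts edgeR called 2 (SNHG12 and SNHG15, background 0.927% of 30090 genes, which include those with very few counts). Leaving out 1 library gave 2 to 7 host genes lower at an unadjusted p under 0.05 (2 where the background was 4.51%, 7 where it was 8.64% or 5.35%), with medians from -0.27 to -0.11 on the log2 scale. Control and siRBM3 libraries share the numbers 3 and 5. Their deviations, taken here from the mean of their own group, correlated at r = 0.61 for number 3 and 0.091 for number 5. The former was the highest of all control and siRBM3 pairs. These are not the host gene deviations from the mean of the 6 libraries given above. Whether a number marks a shared batch is not stated and cannot be told from these values. The replicate block rests on 2 pairs with 1 residual degree of freedom, since control replicate 1 and siRBM3 replicate 4 stand alone in it. With it 3 host genes were called (SNHG1, SNHG12 and SNHG15, background 2.23%), 11 were lower at p under 0.05 (background 13.5%) and the median was -0.32. The block counts lower at p under 0.05 were 8 for snoRNP proteins, 6 for NMD factors, 3 for RNA decay and translation control and 22 (15 higher, background not computed) for protein-coding hosts. Under the block GAS5 turned to -0.37, SNHG29 to -0.17, ZFAS1 to -0.50, SNHG5 to -0.52, SNHG10 to 0.25 and SNHG19 to 0.0078. With library size only SNHG14 was at -0.016, ZFAS1 at -0.030 and SNHG5 at -0.054, and with limma-voom SNHG6 was at 0.0014. Leaving out single libraries spanned both signs for SNHG28 (-0.20 to 0.26), GAS5 (-0.12 to 0.71), TAF1D (-0.27 to 0.040), SNHG10 (-0.53 to 0.10), SNHG14 (-0.0078 to 0.071), SNHG19 (-0.29 to 0.12), SNHG29 (-0.14 to 0.29), SNHG30 (-0.28 to 0.017), ZFAS1 (-0.27 to 0.36), SNHG18 (-0.30 to 0.086), EPB41L4A-AS1 (-0.44 to 0.070), SNHG5 (-0.37 to 0.36) and SNHG6 (-0.22 to 0.12). SNHG12 and SNHG31 were the genes with p under 0.05 in each of the 6 fits without a library. The cause of these changes was not tested, and 3 libraries per group, with few counts in the least abundant host genes, limit the precision.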
